A study of Mus musculus with 6 samples.

Results

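The vesicular glutamate transporters are the 3 genes Slc17a6, Slc17a7 and Slc17a8, which encode VGLUT2, VGLUT1 and VGLUT3. They were picked by symbol from the 55341 genes of the count tables, and all 3 were among the 16729 genes that passed the filter on low counts. The choice was made with their response to GSK-126 known, so the differences between treated and control cultures are given below as a description without a test.

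RNA came from cultures of cerebellar granule neurons (CGNs), prepared from CD1-IGS mouse pups, in which granule neuron precursors leave the cell cycle and mature over several days. There were 3 libraries of cultures with the solvent DMSO alone and 3 of cultures with GSK-126. GSK-126 inhibits EZH2, the enzyme that places trimethylation on lysine 27 of histone H3. The labels date both groups DIV3, for days in vitro, and the study describes addition at DIV3 with RNA taken at DIV5. The dose is not given in the labels. Every culture, control or treated, was made from pooled cerebella of mouse litters and received cytosine arabinoside against dividing cells, and the labels name no genetic change. The labels call the source cerebellum, while the titles name CGNs. Markers of granule neurons (Pax6, Zic1, Neurod1, Rbfox3 and others, 10 of 10 tested) were present at 2630 to 4770 CPM in sum, where CPM is the count of a gene scaled to a common library size. The libraries also held RNA of other cells, with vascular and stromal genes summing to 7490 to 10000 CPM in the controls and 8570 to 10900 CPM with GSK-126, so these were not pure neurons.

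A vesicular glutamate transporter fills synaptic vesicles with glutamate, driven by the proton gradient that the vesicle ATPase makes, and a neuron that has one can release glutamate. Granule neurons are the glutamatergic neurons whose axons form the parallel fibres of the cerebellar cortex. Young granule neurons use VGLUT2, and VGLUT1 takes its place as their synapses mature, whereas VGLUT3 is typical of scattered cells that often release a second transmitter. VGLUT2 also remains in climbing fibres and in neurons of the cerebellar nuclei, and unipolar brush cells use transporters of this family too.

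The 3 genes lie apart in the genome and share no exon with another gene on either strand in GENCODE M21. Slc17a6 (ENSMUSG00000030500.6) lies on chromosome 7 of GRCm38 from 51622006 to 51671119 on the plus strand, with 12 merged exons. Slc17a7 (ENSMUSG00000070570.5) lies on the same chromosome and strand from 45163949 to 45176142. Slc17a8 (ENSMUSG00000019935.16) lies on chromosome 10 from 89574020 to 89621253 on the minus strand, with 13 merged exons. Slc17a7 has 6 merged exons because retained introns of 3 non-coding transcripts join its exons, so its merged length of 5392 bp is well above the 2915 bp of its principal coding transcript. Their coding sequences are 1746, 1680 and 1803 bp long and are related but not near copies, with 71.9% identity between Slc17a6 and Slc17a7, 71.1% between Slc17a6 and Slc17a8 and 70.0% between Slc17a7 and Slc17a8. The longest stretch shared by any pair was 25 bases, which is shorter than a read, so reads of one gene would seldom be taken for another.

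The sequences just before the transcription starts are printed because the 3 genes, which differed in their response, are read from separate promoters that can be compared letter by letter. Each is 250 bases from RefSeq on GRCm38.p6, written 5′ to 3′ on the strand of the gene, with GC boxes (GGGCGG on either strand) in capitals.
Slc17a6, chr7:51621580-51621829, plus strand: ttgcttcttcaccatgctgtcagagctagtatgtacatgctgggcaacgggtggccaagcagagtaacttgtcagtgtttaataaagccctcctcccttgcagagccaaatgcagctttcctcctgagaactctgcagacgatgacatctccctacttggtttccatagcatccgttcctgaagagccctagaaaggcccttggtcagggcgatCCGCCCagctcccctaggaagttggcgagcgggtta
Slc17a7, chr7:45163671-45163920, plus strand: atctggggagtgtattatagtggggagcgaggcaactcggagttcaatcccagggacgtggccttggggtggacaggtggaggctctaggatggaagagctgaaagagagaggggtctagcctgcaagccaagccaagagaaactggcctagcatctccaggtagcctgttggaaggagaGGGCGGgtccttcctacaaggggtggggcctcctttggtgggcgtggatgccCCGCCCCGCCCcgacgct
Slc17a8, chr10:89621250-89621499, minus strand: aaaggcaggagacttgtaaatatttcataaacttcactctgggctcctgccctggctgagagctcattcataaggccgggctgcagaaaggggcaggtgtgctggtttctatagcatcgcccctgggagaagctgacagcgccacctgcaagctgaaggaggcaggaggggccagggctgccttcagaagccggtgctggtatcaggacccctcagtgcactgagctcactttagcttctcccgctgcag
The window of Slc17a7 was the richest of the 3 in G and C, at 61.2%, and held 9 CpG dinucleotides and 3 GC boxes, 2 of which overlap and lie next to the start. The window of Slc17a6 had 53.2% G and C, 7 CpG and 1 GC box, and that of Slc17a8 had 57.2%, 5 CpG and no GC box. Over 32817 mouse promoter windows of this length the medians were 52.4% G and C and 6 CpG, and 32.7% of windows held a GC box. None of the 3 windows held the ZIC core CAGCAGG, the E-box CAGATG or the CRE half-site TGACG on either strand, which were found in 8.45%, 14.5% and 17.7% of windows. RefSeq lists 1 further start for Slc17a6 and 1 for Slc17a8, and none for Slc17a7. The window at the further start of Slc17a6 held 1 E-box CAGATG and 1 CRE half-site, and that of Slc17a8 held 1 E-box. These matches are letters in a window and do not show binding.

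The 6 libraries held between 7407189 and 13092763 counts on genes, so a gene at 1 CPM had about a handful of counts in the shallowest. Libraries with different replicate numbers reached a correlation of 0.0122 at most across genes in their deviations from their group means. Deviations cancel within a group, so these low values follow in part from high ones elsewhere and are not separate evidence. Libraries with the same replicate number deviated together, with correlations of 0.513 to 0.663. The number was therefore taken to pair the libraries, and values within numbered pairs are given beside the group means. In both groups replicate 2 had the highest sum of granule neuron identity markers and the lowest sum of astroglial markers, with values given below. Results are therefore also given without it. Replicates 1 and 3 were not alike in astroglial markers, at 8070 and 4560 CPM in DMSO and 8420 and 4530 CPM with GSK-126. No pair of libraries within a group agreed within counting noise, since chi-square per degree of freedom was 12 or more.

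VGLUT1 was the transporter with the widest range. Slc17a7 stood at 57.6, 276 and 65.3 CPM in DMSO replicates 1, 2 and 3 and at 15.2, 68.2 and 17.8 CPM in GSK-126 replicates 1, 2 and 3. Replicate 2 was far above the other two in both groups, so the groups overlapped: the treated replicate 2 lay above the control replicates 1 and 3. Behind these levels were 499, 2960 and 751 counts in the controls and 200, 633 and 133 counts in the treated cultures.

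Within each numbered pair the VGLUT1 level with GSK-126 was well under that of the control. The control was 3.80-fold higher than the treated culture in pair 1, 4.05-fold in pair 2 and 3.67-fold in pair 3. On the log2 scale the pairs differed by -1.89, -2.01 and -1.85, with an SD of 0.083 over the 3 pairs. Over all tested genes, 22.8% were lower with GSK-126 in all 3 pairs. The means were 133 ± 124 CPM in DMSO and 33.7 ± 29.9 CPM in GSK-126 (SD, n = 3), so the SD of each group was nearly as large as its mean. The log2 fold change was -1.98 with a standard error of 0.77 in the edgeR fit without a replicate block, and -1.95 with a standard error of 0.09 with the block. The value without the block rested on replicate 2: it was -0.87 when the control replicate 2 was left out and -3.02 when the treated replicate 2 was left out. With the block it ranged from -1.90 to -1.98 as each pair was left out.

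VGLUT2 levels were nearly the same in both groups. Slc17a6 stood at 81.0, 108 and 87.7 CPM in DMSO replicates 1 to 3 and at 75.0, 133 and 104 CPM with GSK-126. The treated culture was lower than its control in pair 1 and higher in pairs 2 and 3, and the groups overlapped. The pairs differed by -0.11, 0.29 and 0.24 on the log2 scale. The means were 92.4 ± 14.3 and 104 ± 28.8 CPM (SD, n = 3), with a log2 fold change of 0.17 (standard error 0.22) without the block and 0.14 (standard error 0.09) with it. Without GSK-126 replicate 2 the sign turned, at -0.05, and with the block and without pair 2 it was 0.07.

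VGLUT3 was scarce in every library. Slc17a8 had 31, 21 and 25 counts in the controls and 60, 36 and 46 counts in the treated cultures, that is 3.58, 1.96 and 2.17 CPM against 4.55, 3.88 and 6.14 CPM. Each treated culture lay above every control, and each lay above its own control, by 1.27-fold, 1.98-fold and 2.83-fold. Over all tested genes, 4.72% had treated libraries that all lay above the controls, and 19.5% were higher with GSK-126 in all 3 pairs. The means were 2.57 ± 0.879 CPM in DMSO and 4.86 ± 1.16 CPM in GSK-126 (SD, n = 3), and the log2 fold change was 0.92 with a standard error of 0.36 without the block and 0.33 with it. With the block and without pair 2 it was 0.90.

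**Figure D1:**
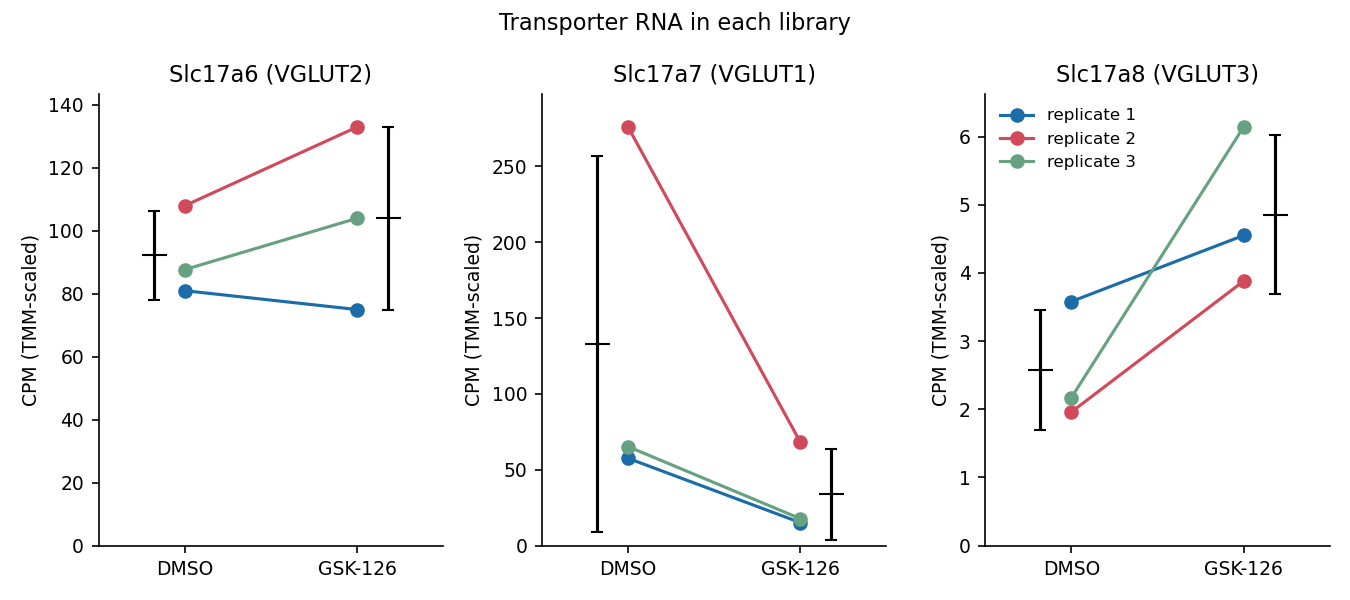
CPM of each transporter gene (vertical axes, linear from 0, TMM-scaled) in the DMSO and GSK-126 libraries, with a line joining libraries of the same replicate number and black bars for mean ± SD (n = 3). The 3 lines of Slc17a7 all slope down from 276 CPM or less to 68.2 CPM or less, those of Slc17a8 all slope up, and those of Slc17a6 do not share a direction.

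Set per kilobase of merged exon, so that genes can be compared, VGLUT2 took 56.7%, 28.0% and 56.4% of the transporter RNA in DMSO replicates 1 to 3, and VGLUT1 took 40.4%, 71.4% and 42.0%. With GSK-126 VGLUT2 took 78.6%, 64.6% and 80.7%, and VGLUT1 took 15.9%, 33.2% and 13.8%. VGLUT1 led in 1 library, the control replicate 2, and VGLUT2 led in the other 5. The VGLUT1 share was 51.3% ± 17.5 in DMSO and 21.0% ± 10.6 in GSK-126 (SD, n = 3). Every treated library had a lower VGLUT1 share than every control. Without replicate 2 of the group concerned, the means were 41.2% and 14.9%.

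VGLUT3 took 0.579% to 2.87% of the transporter RNA in the controls and 2.16% to 5.47% in the treated cultures, below both other genes in all 6 libraries. The order of VGLUT1 and VGLUT2 in the controls depended on the length used. With the principal transcript in place of merged exons, a choice added after the data were seen, VGLUT1 took 49.2%, 78.0% and 50.8% in the controls and 21.3%, 41.5% and 18.7% with GSK-126. In control replicates 1 and 3 VGLUT1 and VGLUT2 therefore cannot be put in order.

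The ratio of VGLUT1 to VGLUT2 needs no scaling between libraries. As a log2 ratio per kilobase of merged exon it was -0.49, 1.35 and -0.42 in the controls and -2.31, -0.96 and -2.54 in the treated cultures. The treated culture minus its control gave -1.82, -2.31 and -2.12 on the log2 scale in pairs 1, 2 and 3. As a share of the plain counts of the 3 genes, Slc17a7 had 40.5% (Wilson 95% interval 37.8 to 43.3), 71.4% (70.0 to 72.8) and 42.1% (39.8 to 44.4) in DMSO. With GSK-126 the count share was 16.0% (14.1 to 18.1), 33.3% (31.2 to 35.4) and 13.9% (11.9 to 16.3). These intervals cover counting error only.

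The summed level of the 3 genes was 26.4, 71.7 and 28.8 CPM per kilobase in the controls and 17.7, 38.0 and 23.8 with GSK-126. It was lower in the treated culture of each pair, but the treated replicate 2 lay above the control replicates 1 and 3.

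**Figure D2:**
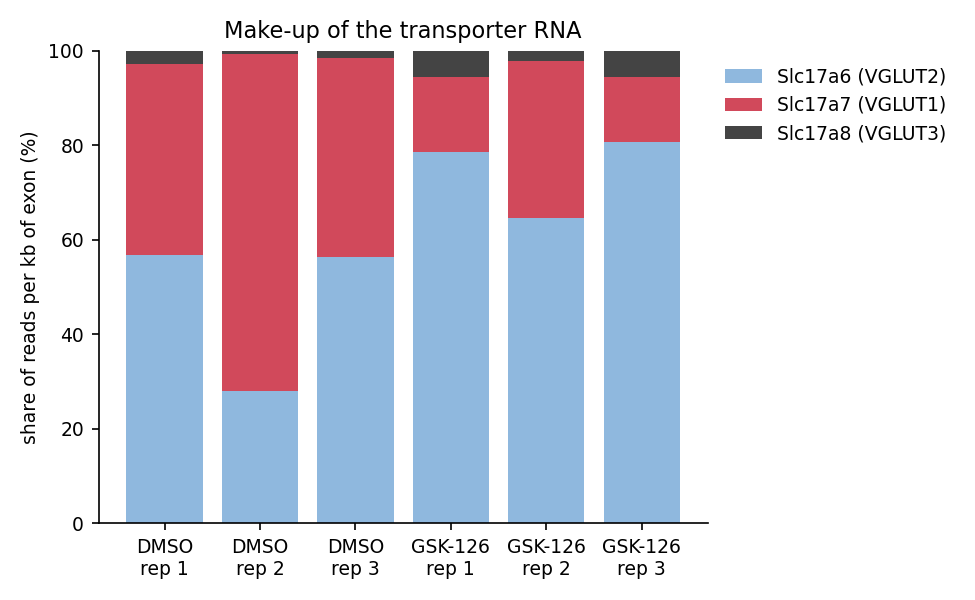
Share of each gene in the RNA of the 3 transporters (vertical axis, percent of reads per kilobase of merged exon) in each of the 6 libraries. The red VGLUT1 segment spans 40.4% to 71.4% in the DMSO libraries and 13.8% to 33.2% in the GSK-126 libraries.

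The difference between replicate numbers is a separate term from the contrast that chose the genes, and it was tested because same-numbered libraries deviated together. Its error is the spread left within pairs. A gene chosen for an even response over the pairs has a small spread there. The p-values of the transporters below are therefore not fully independent of the choice. The replicate term passed in 5259 of the 16729 genes, or 31.4%, at an adjusted p under 0.05. The test was edgeR's quasi-likelihood test, adjusted over all genes by the method of Benjamini and Hochberg. The term asks whether the 3 replicate numbers differ at all, not which one stands apart. Slc17a7 passed it (adjusted p = 7e-12 by edgeR's quasi-likelihood test), and the fitted value of replicate 2 lay 2.12 on the log2 scale above the mean of replicates 1 and 3. In CPM, replicate 2 was 4.49-fold above the mean of the other two controls and 4.14-fold above the mean of the other two treated cultures. Slc17a6 also passed (adjusted p = 0.00063 by edgeR's quasi-likelihood test), with replicate 2 above the others by 0.48, a 1.29-fold difference in the controls and 1.49-fold in the treated cultures. Slc17a8 did not pass (adjusted p = 0.55 by edgeR's quasi-likelihood test), and its log2 difference of replicate 2 was -0.48. With group left out of the fit, neither Slc17a7 (adjusted p = 0.09 by edgeR) nor Slc17a6 (adjusted p = 0.053 by edgeR) passed the term.

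The replicate 2 cultures also differed in markers of other cells. The 11 astroglia markers, such as Gfap and the glutamate transporter Slc1a3, summed to 8070, 2670 and 4560 CPM in DMSO replicates 1 to 3 and to 8420, 2580 and 4530 CPM with GSK-126. All 11 passed the replicate term, and in 10 of them replicate 2 was the lowest library of both groups, as it was in 24.2% of all tested genes. Granule neuron identity markers summed to 3180, 4770 and 3620 CPM in the controls and 2630, 3970 and 2780 CPM with GSK-126. Of these markers 9 of 10 passed the replicate term, and in 8 replicate 2 was the highest library of both groups. Of the late granule neuron genes 15 of 16 passed the term, and 15 of 16 had replicate 2 highest in both groups, against 26.6% of all tested genes. Among the 164 tested genes of all lists, 1 had a larger excess in replicate 2 than Slc17a7: Car8, a Purkinje cell marker, named after its value was seen. Car8 was scarce, at 0.134 to 2.8 CPM, so its excess rests on few counts. In bulk RNA fewer cells of a type and less RNA per cell cannot be told apart. The part of cell makeup in the levels of the transporters was not tested.

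Next the other genes around the transporters were counted. The fit without the block called 0 of 16729 genes (0%) at an adjusted p under 0.05 by edgeR's quasi-likelihood test, and 296 higher genes and 369 lower genes had an unadjusted p under 0.05, while DESeq2 without the block called 20 higher and 1 lower. With the block, edgeR called 561 genes higher (3.35%) and 851 lower (5.09%), or 8.44% in all. All calls on list genes below are from the fit with the block, by the same edgeR test and adjustment, and in the fit without it none of the genes named passed. In the fit with the block the log2 fold change of Slc17a7 was the 8th lowest of the 16729. Of the 15178 genes with a mean log2 CPM over 1, 4 lay lower, and of the 164 tested list genes none did.

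Other vesicular transporters move other transmitters or load other organelles. Of 11 on the list, 5 were tested and 1 fell: Slc32a1, which encodes VGAT, the vesicular transporter for GABA and glycine. Slc32a1 stood at 54.8, 58.8 and 64.7 CPM in the controls and 47.1, 32.4 and 29.8 CPM with GSK-126, every treated library below every control. Over all genes, 4.72% had treated libraries that all lay below the controls. Its log2 fold change was -0.72 with a standard error of 0.13 (adjusted p = 0.0015 with the block, 0.953 without it, both by edgeR). Slc17a5, the lysosomal sialic acid carrier sialin, was level at 35.9 ± 4.54 and 35.8 ± 6.21 CPM, and Slc18b1, a vesicular polyamine transporter, at 19.4 ± 1.34 and 19.4 ± 1.32 CPM (SD, n = 3). Slc17a9, the vesicular nucleotide transporter, and Slc18a2, the vesicular monoamine transporter VMAT2, lay under 4 CPM in both group means and did not pass. The related anion carriers Slc17a1, Slc17a2, Slc17a3 and Slc17a4 had 0 counts in all 6 libraries. Slc18a1 had 3 to 13 counts and Slc18a3, the vesicular acetylcholine transporter, 0 to 3 counts, and neither was tested.

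The genes that supply glutamate to the vesicle showed few calls. Of 17 tested, 1 rose and 1 fell, with a median log2 fold change of -0.06 against -0.006 over all tested genes. Slc38a7, an amino acid carrier that exports glutamine from lysosomes, rose by 0.37 (adjusted p = 0.029 with the block by edgeR). Slc25a22, a mitochondrial glutamate carrier, fell by 0.33 (adjusted p = 0.019 with the block by edgeR). Both calls were lost without pair 2, where edgeR gave Slc38a7 0.31 (adjusted p = 0.13) and Slc25a22 -0.30 (adjusted p = 0.07). Slc38a7 was also lost without pair 1 (0.38, adjusted p = 0.11 by edgeR) and in DESeq2 with the block (adjusted p = 0.08), and Slc25a22 without pair 3 (-0.29, adjusted p = 0.11 by edgeR).

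Of 16 tested genes of the vesicle proton pump and chloride channel, 1 fell, with a median of 0.08. It was Atp6v1g2, the neuronal G subunit of the ATPase, at 83.4 ± 30.3 CPM in the controls and 63.7 ± 31.3 CPM in the treated cultures (SD, n = 3), a log2 fold change of -0.43. With 1 pair left out 1 gene of the list fell each time, and 2 rose without pair 1, 0 without pair 2 and 1 without pair 3.

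Of 20 tested proteins of the synaptic vesicle itself, 10 fell and 1 rose, with a median of -0.29. Sv2c, a vesicle glycoprotein of the SV2 family, was the nearest of them to Slc17a7 in size. It stood at 30.9, 63.1 and 26.0 CPM in the controls and 9.70, 16.3 and 7.48 CPM with GSK-126, and its log2 fold change was -1.81 with a standard error of 0.14 (adjusted p = 9.3e-08 with the block by edgeR). Syn2, a synapsin, and Sh3gl2, the endophilin of vesicle recycling, fell by 0.45 and 0.43. The synapsin Syn3 rose, by 0.36. The list had 8 that fell and 2 that rose without pair 1, 11 and 1 without pair 2, and 7 and 1 without pair 3. Set against the median of this list within each pair, Slc17a7 differed by a further -1.62, -1.78 and -1.56 on the log2 scale.

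Among late granule neuron genes 14 of 16 fell and none rose, with a median of -0.79. Some of these genes are named in the study for their behaviour in maturing CGNs. It names Gabrd and Grin2c as reduced by GSK-126 in another experiment, where the drug was added earlier than DIV3. The study also reports lower expression of late genes with GSK-126 added at DIV3. The lists were chosen with earlier results of these data known, so this list is not independent evidence of a direction. Gabra6, a GABA-A receptor subunit particular to mature granule neurons, Etv1, a transcription factor of their maturation, and Kcnc1, a fast potassium channel, fell by 1.19, 1.17 and 0.88. Gabra6, like Slc17a7, was highest in replicate 2 of each group, at 75.7, 216 and 84.1 CPM in the controls and 35.6, 78.7 and 43.0 CPM with GSK-126, but with a smaller difference between the groups. With 1 pair left out, 13 or 14 of the 16 fell. The difference of Slc17a7 minus the median of this list was -1.15, -1.13 and -1.03 within the pairs.

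The early granule neuron genes did not share a direction: 5 of 16 rose and 3 fell, with a median of 0.20. Ccnd2, a D cyclin, rose by 0.41, while Ptch1, the receptor for Sonic hedgehog, and Neurod1, a neuronal transcription factor, fell by 0.46 and 0.47. Without pair 1 the counts were 4 that rose and 3 that fell, without pair 3 they were 4 and 2, and without pair 2 they were 3 and 1, where Ptch1 was at -0.28 (adjusted p = 0.07 by edgeR). Slc17a6, the transporter of the young granule neuron, had a log2 fold change of 0.14, beside the list's median of 0.20.

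Of 10 granule identity genes 5 fell (median -0.28), among them Rbfox3, the NeuN antigen, by 0.59 and Cdh15, a cadherin of granule neurons, by 1.20. Of 15 general neuronal genes 9 fell and 1 rose (median -0.32), and Snap25, a vesicle fusion protein, and Dnm1, the dynamin of vesicle recycling, fell by 0.96 and 0.88. The lists share some genes, so their counts are not separate observations. Rbfox3 is on both of these lists and Neurod1 on the early and identity lists. The neuronal gene that rose is also an early gene that rose. Slc17a7 minus the median of the identity genes gave -1.62, -1.71 and -1.51 within the pairs, and minus that of the neuronal genes -1.63, -1.71 and -1.55. With 1 pair left out, 4 to 6 of the identity genes and 7 to 9 of the neuronal genes fell. The VGLUT1 difference was larger in each pair than the median of either list. Slc17a7 was chosen with its response known, which made this likely, so it is a description only.

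**Figure D3:**
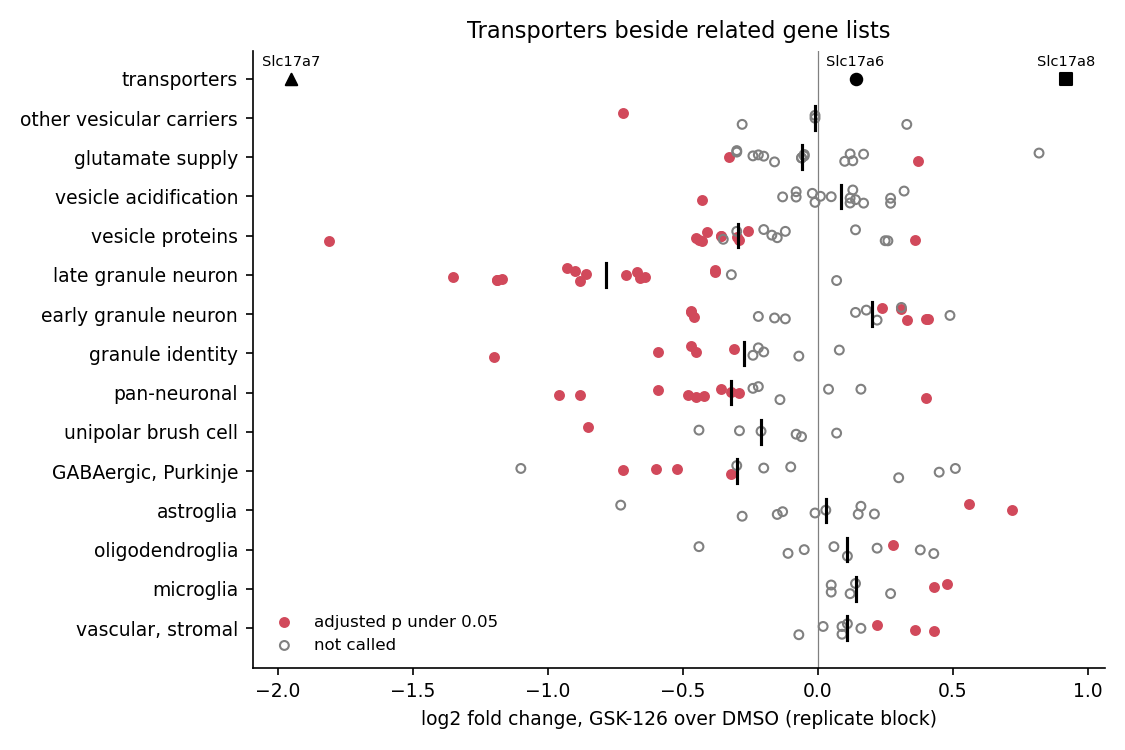
Log2 fold change of GSK-126 over DMSO with the replicate block (horizontal axis) for the 3 transporters (black symbols, top row) and for the tested genes of 14 lists, one row each, with a bar at each list's median. Red points passed an adjusted p under 0.05; Slc17a7 at -1.95 lies left of every point and the late granule neuron genes have the lowest median, -0.79.

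Markers of the other cells that use these transporters were also read. For unipolar brush cells 1 of 7 tested genes fell, Eomes, by 0.85, from 12.4 ± 5.75 to 7.36 ± 6.07 CPM (SD, n = 3). For glutamatergic neurons of the cerebellar nuclei, the defining factors Tbr1, Lhx2 and Lhx9 had between 0 and 21 counts in any library and were not tested. Spp1, the remaining gene on that list and one that other cells also express, rose by 0.45. Among genes of GABAergic and Purkinje cells 4 of 11 fell. Without pair 1 there were 2, without pair 2 there were 3, and without pair 3 there were 2, with 1 that rose. The 4 included Gad1, a GABA-synthesising enzyme, which fell by 0.32. Slc32a1, already counted above among the other vesicular transporters, was also 1 of them. The summed list stood at 367 to 432 CPM in DMSO and 282 to 362 CPM with GSK-126. Eomes was lost without pair 3 (-0.48, adjusted p = 0.28 by edgeR) and in DESeq2 with the block (-0.89, adjusted p = 0.071), and Gad1 without pair 1 (-0.34, adjusted p = 0.074 by edgeR) or pair 3 (-0.26, adjusted p = 0.16 by edgeR).

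Of 36 tested genes of non-neuronal cells on 4 lists, 8 rose (22.2%, against 3.35% of all genes) and 0 fell. With pair 1 or pair 3 left out, 1 astroglia gene was called lower. Of the astroglia list 2 of 11 rose (median 0.03), S100b by 0.56 and Gdf10 by 0.72. The myelin gene Mbp, 1 of 9 oligodendroglia genes, rose by 0.28. The complement genes C1qa and C1qb, 2 of 7 microglia genes, rose by 0.48 and 0.43, and the summed microglia list stood at 188 to 408 CPM in DMSO and 268 to 502 CPM with GSK-126. Of the vascular and stromal list 3 of 9 rose: Acta2 by 0.43, Pdgfrb by 0.36 and Col1a2 by 0.22. Without pair 2, Mbp (0.15, adjusted p = 0.27 by edgeR) and C1qb (0.31, adjusted p = 0.067 by edgeR) were lost, and without pair 1 C1qb (0.37, adjusted p = 0.065 by edgeR) and Gdf10 (0.63, adjusted p = 0.16 by edgeR). In DESeq2 with the block, Gdf10 (adjusted p = 0.063) and Mbp (adjusted p = 0.056) were lost. Col1a2 was lost whichever pair was left out (values from 0.17 to 0.26, adjusted p from 0.071 to 0.19 by edgeR). These values stand beside the transporters' own, and their part in them was not tested.

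**Figure D4:**
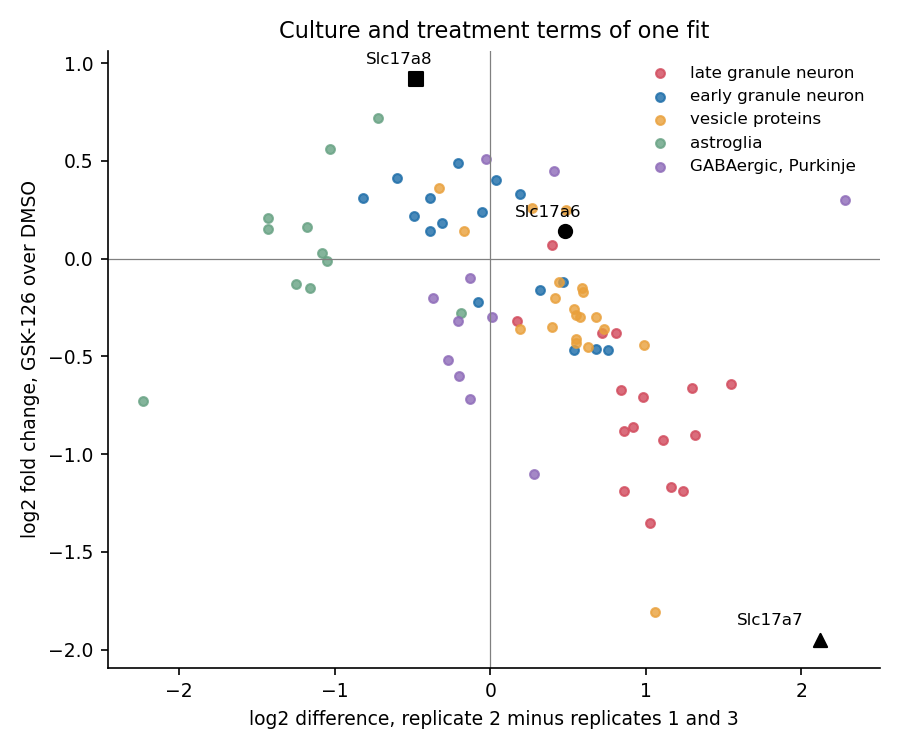
For the 3 transporters (black) and the genes of 5 lists (colours), the log2 difference of replicate 2 from replicates 1 and 3 (horizontal axis) against the log2 fold change of GSK-126 over DMSO (vertical axis), both from the fit with group and replicate. Slc17a7 lies in the lower right corner at 2.12 and -1.95, beyond the late granule neuron genes, and Slc17a6 at 0.48 and 0.14.

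The genes whose log2 CPM followed each transporter most closely over the 6 libraries were picked by Pearson's r among 15178 genes. For Slc17a7 they were Klhl3, a ubiquitin ligase adaptor (r = 0.9991), Cplx2, a complexin of vesicle fusion (0.9982), Gm26723 (0.9972), Dgkd, a diacylglycerol kinase (0.9964), and Tial1, an RNA-binding protein (0.996). Of these 5, 3 had the same order of the 6 libraries as Slc17a7, and all 5 differed less between the groups, with log2 fold changes from -0.29 for Tial1 to -0.63 for Cplx2 in the fit with the block. Many genes were this alike: 1283 genes had r over 0.9 with Slc17a7.

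For Slc17a6 they were Stau2, an RNA-binding protein of dendrites (r = 0.9895), Cmas, an enzyme that activates sialic acid (0.9873), Nsg1, a neuronal endosome protein (0.9816), Arf1, a GTPase of vesicle budding (0.9804), and Gm26833 (0.9794). Their log2 fold changes lay between 0.02 and 0.18, and 148 genes had r over 0.9. For Slc17a8 they were Traf3ip2, an adaptor of interleukin signalling (0.9958), 2210016F16Rik (0.9879), Gm20319 (0.9797), Pmvk, an enzyme of the mevalonate pathway (0.9787), and Tm4sf1, a membrane protein (0.9783), with 119 genes over 0.9. Over 6 libraries that share cultures and treatment these correlations are a description.

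**Figure D5:**
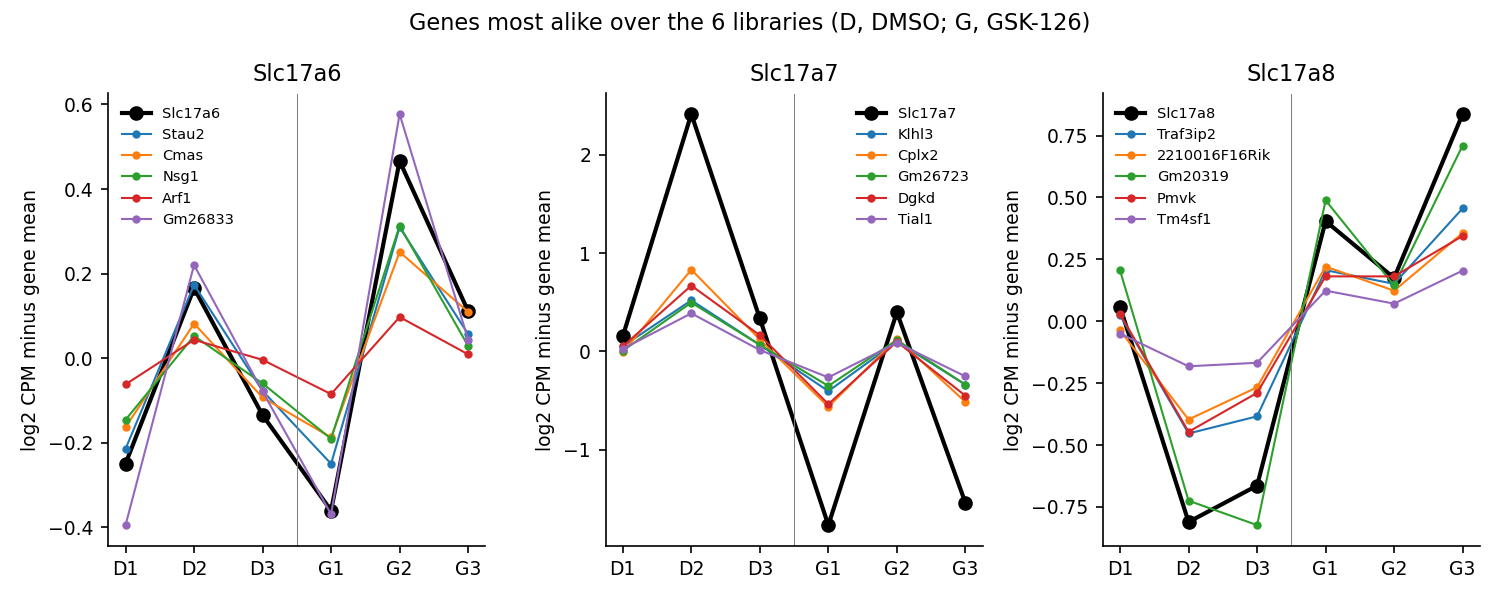
Log2 CPM minus the mean of each gene (vertical axes) in DMSO (D) and GSK-126 (G) libraries 1 to 3, for each transporter (black) and the 5 genes with the highest Pearson correlation to it. Slc17a7 spans the widest range of the 3 panels, with D2 highest and G1 lowest, while the 5 genes most like it span a smaller range and 3 of them have its order of libraries.

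The genes next to Slc17a7 did not share its difference. Of 13 tested genes within 100 kb, the log2 fold changes ran from -0.23 to 0.47 with a median of 0.12, and none fell. The single tested neighbour of Slc17a6, Ano5, had -0.12 and was not called. The 3 tested neighbours of Slc17a8 ran from -0.24 to about no difference, and none was called.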

How the data were processed

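Poly(A) RNA of 6 CGN cultures was sequenced. Per the submitters' notes and methods, the authors used Trimmomatic 0.38 for trimming, STAR 2.7.2b with mm10 for alignment and HTSeq for counts of exon reads per gene. The deposited values are raw counts. The strand setting is not given in the sources used here. Lines that name no gene (58.7% to 60.7% of the reads listed) were left out. Groups came from the titles. Counts were scaled by TMM, filtered with filterByExpr and fitted in edgeR 4.0.16 under R 4.3.3 by its quasi-likelihood test, with group alone, as the study states no block, and with the replicate number as a block. The biological coefficient of variation was 24% without the block and 9.74% with it. Scripts were tested on simulated data. Alternatives used DESeq2 1.42.0, other scalings, filters and left-out libraries. Symbols, coordinates and exon lengths are from GENCODE M21.

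The members and lists were chosen with earlier results of these data known. Genes named were the transporters, the tested other vesicular transporters, up to 3 called genes with the smallest p per list, and the 5 genes most like each transporter; some genes this rule names are not reported here. Car8, Syn3 and Ano5 were named after their values were seen. Replicates are separate cultures of pooled litters. The correlation of deviations over same-numbered libraries, above 0.1 in every pair, gave the pairing.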

Additional observations from a re-analysis of the deposited data

How the results depend on the processing

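Calls over all genes depended on the replicate block and the tool. Against 0 without the block, the counts of higher and lower genes were 561 and 851 with it, 9 and 1 without the filter on low counts, 20 and 1 with DESeq2, and 369 and 618 with DESeq2 and the replicate block. With the block and 1 pair left out they were 416 to 581 higher (435 without pair 2) and 628 to 777 lower (670 without pair 1). On the lists, where the fit without the block called 0, the block called 16 higher and 45 lower, DESeq2 with the replicate block 10 and 41, and the block with 1 pair left out 11 to 16 (14 without pair 1) and 37 to 43. Without the filter, and in DESeq2 without the block, 1 list gene was lower. The replicate term passed in 1727 genes with group left out of the fit and in 3388 at an adjusted p under 0.01, against 5259. With group left out, the replicate term no longer passed for Slc17a6 (0.48, adjusted p = 0.053 by edgeR) or Slc17a7 (2.15, adjusted p = 0.09 by edgeR).

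The log2 difference of Slc17a6 ranged from -0.05, without GSK-126 replicate 2, to 0.37 with 1 library left out. That of Slc17a7 was negative, and that of Slc17a8 positive, under every alternative run. Values near 0 turned sign. Slc17a5 was at 0.03 with upper-quartile and with total-count scaling, 0.01 with no filter, 0.02 with at least 10 counts in every library, 0.003 in DESeq2, and -0.09 to 0.14 with 1 library left out (0.02 and 0.13 with the block and pair 1 or 2 left out). Slc18b1 was at 0.03, 0.03, 0.01, 0.01 and 0.003 under the same settings and -0.05 to 0.05 with 1 library left out (0.02 and 0.05 with the block and pair 1 or 3 left out). With 1 library left out, Arf1 ranged from -0.03 to 0.08 (also -0.009, and -0.004 with the block and pair 2 left out), Gm26833 from -0.1 to 0.41, Mbp from -0.06 to 0.5, Nsg1 from -0.03 to 0.24, Slc17a9 from -0.01 to 0.67 and Stau2 from -0.06 to 0.23. The causes were not tested. With 21 to 60 counts per library, Slc17a8 is limited by depth.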
